A study of Mus musculus with 9 samples.

Results

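The nuclear genes for subunits of the mitochondrial respiratory chain were followed through lactation and weaning in osteocyte-enriched mouse bone. Members were chosen by symbol: Ndufa, Ndufb, Ndufc, Ndufs or Ndufv genes with Ndufab1, Sdha to Sdhd, Uqcr genes, Cox4 to Cox8 genes, and Atp5 genes, each with at least 1 probe set of the array that names no other gene. The symbols alone decided which genes belong, and the families were picked with earlier results of these data known. It gave 81 of the 18194 genes measured, through 168 probe sets: 35 genes of complex I, 4 of complex II, 8 of complex III, 17 of complex IV and 17 of complex V. Each gene was read from its brightest probe set. The members lie on 19 chromosomes.

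RNA came from tibial shafts of wild-type CD-1 mice aged 16 to 18 weeks and was measured on Affymetrix mouse expression arrays, 3 per group. Virgin mice of the same age were set beside mice at day 12 of lactation and beside post-lactation mice, sampled 7 days after their pups were taken away on day 12 of lactation. Litters held 8 to 13 pups. The marrow was spun out and surface cells were removed by sequential digestion with collagenase, trypsin and EDTA, so that the RNA left is enriched for cells buried in the bone. Titles decided the groups, because the post-lactation samples carry the word virgin in their source label. The extraction text names femurs once. Whether each array is a mouse of its own is not said, so the p-values reflect only how these samples scatter, which may be technical. In whole bone RNA, fewer cells of a type and less RNA per cell cannot be told apart.

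Complexes I and II pass electrons from NADH and succinate to ubiquinone, complex III passes them on to cytochrome c, and complex IV, cytochrome c oxidase, hands them to oxygen. Complexes I, III and IV pump protons across the inner mitochondrial membrane, and complex V, the ATP synthase, makes ATP from their return flow. Mitochondrial DNA encodes some subunits, but all of those described here are encoded in the nucleus and imported. Osteoclasts are known for their many mitochondria, red cell precursors carry them until late in maturation, and osteocytes in deep bone live at low oxygen.

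The 9 arrays fell into 3 sets, each with 1 array of every group, within which many probe sets held exactly equal values. Virgin 1 fell in set 1 with lactation 3 and post-lactation 1, virgin 2 in set 2 with lactation 2 and post-lactation 3, and virgin 3 in set 3 with lactation 1 and post-lactation 2. Array medians lay between 4.32 and 4.82 on the log2 scale and differed by set, so groups were compared within sets by fitting the set as a block. In sets 2 and 3, 36.1% to 44.1% of probe sets were equal in a pair of arrays. Between the lactation and post-lactation arrays, 4 members were equal in set 2, 9 in set 3 and 0 in set 1. Between virgin and lactation they were 8, 11 and 1 in the same order, and between virgin and post-lactation 17, 17 and 0. The osteocyte markers Sost, Dmp1, Mepe and Phex were bright on all arrays but lowest on virgin 1, where Sost stood at 8.14 against 13.39 and 13.55 on the other virgin arrays. The mean of 16 osteocyte markers lay 3.64 to 5.16 above the array median in virgin bone, 4.68 to 5.12 in lactation and 4.41 to 5.13 after it.

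Respiratory chain genes were among the brightest on the arrays. Their mean levels over 9 arrays ran from 2.51 to 13.07 with a median of 10.08, the 96.7th percentile of all genes. A level of 4.87, the 40th percentile of genes, served as the bound for dim genes, and 76 members stood at or above it. The 5 members below it were Ndufb4 of complex I and Cox4i2, Cox7a1, Cox7b2 and Cox8b of complex IV. The spread left after group and set were fitted had a median SD of 0.092 over the members, against 0.154 over genes at or above the bound.

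In lactation most members stood slightly above their level in virgin bone, and none passed the test. The share of all genes called at an adjusted p under 0.05 by limma was 0.022%, so few calls were made among any genes. Of the members, 0 were called, 64 were higher and 17 lower, and the median log2 difference was 0.11. At an unadjusted p under 0.05 there were 14 members (17.3%), 13 of them higher, and the smallest adjusted p was 0.149, for Uqcrb. That share was 8.01% over all genes and 17.5% over genes at or above the 90th percentile of level. The count of members is thus near that of bright genes. Among genes at or above the bound, 15.3% were higher in lactation in all 3 sets, and so were 29 of the 76 members there. Exact ties hold such shares down. By the sign of the fitted difference alone, 55.57% of those genes and 78.95% of the 76 members were higher. The median over members was 0.17 in set 2 and 0.10 in set 3, but 0.01 in set 1, which holds virgin 1. Without virgin 1 it was 0.15.

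After weaning most members stood below their level in lactation, mostly by a small amount, and 2 fell past the threshold. These were Atp5b, the catalytic subunit of ATP synthase, and Cox6c, a small subunit of cytochrome c oxidase. Of all genes 3.53% were called in either direction and 2.99% were called lower, so the 2.47% of members called is near the background and is no result about the members as a set. Of the 81 members 64 were lower and 17 higher in post-lactation than in lactation bone, with a median log2 difference of -0.15. At an unadjusted p under 0.05 there were 25 (30.9%), of which 22 were lower. That share was 15.1% over all genes and 29.7% over genes at or above the 90th percentile of level. The count of members is thus near that of bright genes, of which 309 were lower and 231 higher at that p. The median was -0.18 in set 1, -0.14 in set 2 and -0.15 in set 3. Among genes at or above the bound, 24.4% were lower in all 3 sets, and 46 of the 76 members were. Because the members are bright, they were also set beside the 1820 genes at or above the 90th percentile of level. Of those 31.7% were lower in all 3 sets and their median difference was -0.01, while 41 of the 66 members among them were lower in all 3 sets, with a median of -0.16. A gene tied in any set cannot be lower in all 3, so ties hold such shares down. By the sign of the fitted difference alone, 50.88% of the 1820 genes and 84.85% of the 66 members were lower.

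The calls rested on single arrays and on the block. Without virgin 1, which enters this comparison only through the estimate of the spread, 9 members fell: Atp5b, Cox6c, Ndufa4, Cox6b2, Ndufv2, Ndufs1, Uqcrfs1, Ndufb9 and Uqcrb. Without virgin 2, without any 1 lactation or post-lactation array, or without the whole of set 1, 0 members were called, and without virgin 3 there were 2, Cox6b2 among them. Atp5b was called in 1 of 9 such fits and otherwise had an adjusted p of 0.051 to 0.141, and Cox6c was called in 1 of 9 and otherwise had 0.0737 to 0.197. With no set block 0 members were called and both had an adjusted p of 1.

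Between post-lactation and virgin bone no member passed the test. Of all genes 0.451% were called, and of the members 0. At an unadjusted p under 0.05 there were 6 members (7.41%), against 8.11% of all genes. At or above the 90th percentile of level that share was 15.7% of genes and 4.5% of the 66 members there. The members split into 50 lower and 31 higher after weaning, with a median of -0.03, or 0.01 without virgin 1, and the smallest adjusted p was 0.393, for Cox6b2. In set 2, and again in set 3, 17 of the 81 members held exactly equal values in these groups, which enter as a difference of 0. The small median is therefore not a measured return to the virgin level. These 3 comparisons share arrays, so their signs are not independent of each other.

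**Figure D1:**
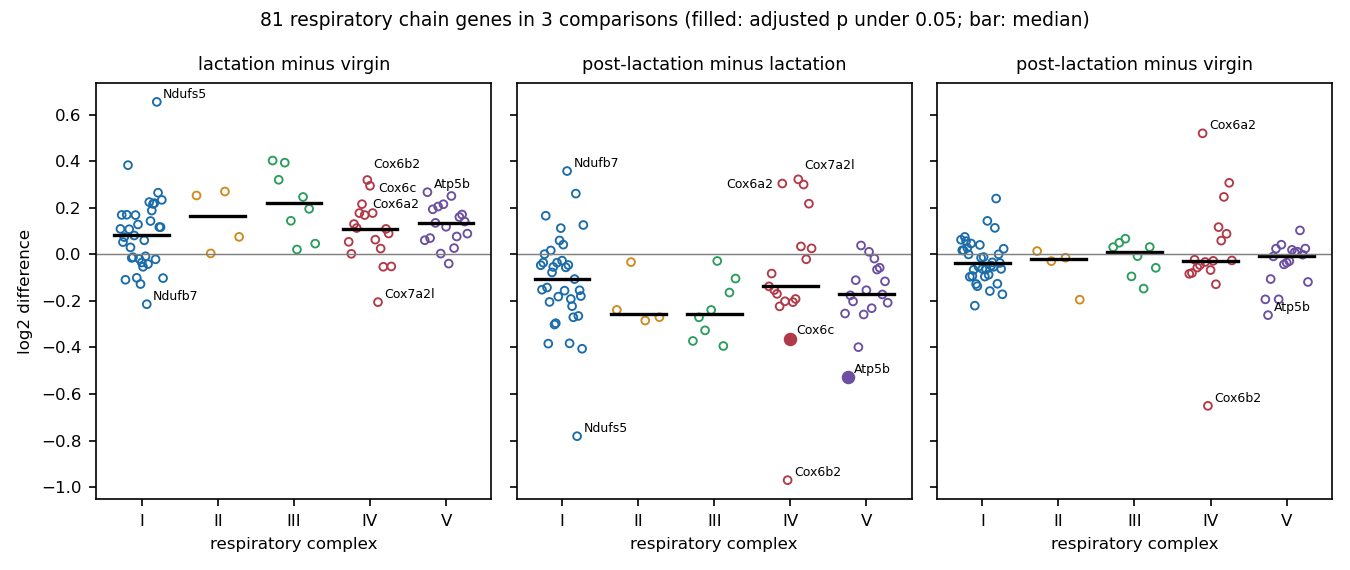
Log2 difference of each of the 81 genes (vertical axis) by complex (horizontal axis) in the 3 comparisons; open circles are genes not called, filled circles genes with an adjusted p under 0.05, and bars the median of each complex. Medians lie above 0 for lactation minus virgin and below 0 for post-lactation minus lactation in all 5 complexes, and only Cox6c and Atp5b are filled.

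Complex I is the NADH dehydrogenase. In post-lactation against lactation bone, 26 of its 35 genes were lower and 9 higher, with a median of -0.11 and a range of -0.78 to 0.36, and 0 were called. In lactation against virgin bone 22 were higher and 13 lower, with a median of 0.08. The complex has a conserved core, which carries the electrons, and a large shell of accessory subunits. All 6 core subunits measured here (Ndufs1, Ndufs3, Ndufs7, Ndufs8, Ndufv1 and Ndufv2) were lower after weaning, with a median of -0.22, against 20 of 29 accessory subunits with a median of -0.05. The split into core and shell follows textbooks but was made after values were seen, and the difference was not tested.

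Ndufv2, an iron-sulfur subunit of the tip where NADH is oxidised, had the largest difference of the core genes. It stood at 9.50, 10.10 and 9.47 in post-lactation bone (sets 1, 2 and 3), against 9.95, 10.42 and 9.91 in lactation bone, a log2 difference of -0.41 (SE 0.099, limma adjusted p = 0.103). It was lower in every set, though not past the threshold. Ndufs1, the largest subunit of the same arm, stood at 7.89, 8.07 and 7.68 after weaning and at 8.15, 8.36 and 7.94 in lactation, also lower in each set (-0.27, adjusted p = 0.142). Ndufv1, which binds NADH and the flavin, differed by -0.18 (adjusted p = 0.345).

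Among the accessory genes, Ndufs5, a small subunit facing the intermembrane space, had the largest difference. It stood at 7.71, 5.94 and 6.96 in post-lactation bone, against 8.44, 6.72 and 7.79 in lactation bone, a difference of -0.78 (SE 0.189, adjusted p = 0.101). Its virgin values were 7.58, 5.75 and 7.66, below lactation in each set, by 0.66 on average (adjusted p = 0.367). Ndufa4, first described in complex I and now placed in complex IV, stood at 9.82, 10.61 and 10.11 after weaning and at 10.19, 11.01 and 10.49 in lactation. Its difference of -0.38 (SE 0.081, adjusted p = 0.0686) was nearly equal in the 3 sets. Ndufb9, of the membrane arm, differed by -0.38 as well (adjusted p = 0.0733).

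Some complex I genes ran the other way, led by Ndufb7, an accessory subunit at the intermembrane face of the membrane arm. It stood at 10.81, 11.00 and 10.75 in post-lactation bone, against 10.36, 10.72 and 10.41 in lactation bone, higher by 0.36 (SE 0.072, adjusted p = 0.059). In lactation it was below virgin bone in each set (10.64, 10.96 and 10.52 in virgin), a difference of -0.21 (adjusted p = 0.48). A second, dimmer probe set of Ndufb7 gave a post-lactation minus lactation difference of 0.00, so the direction rests on 1 probe set. Ndufs4, an accessory subunit that stabilises the NADH arm, was higher after weaning by 0.26 (adjusted p = 0.257), Ndufa2 by 0.17 and Ndufv3 by 0.13. Ndufs4 has 4 probe sets, and with their mean its post-lactation minus virgin difference turned from positive to -0.01.

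The 250 bases before the start of Ndufb7 are shown because it was the member with the largest positive difference after weaning. They lie at chr8:83566508-83566757 on the plus strand of GRCm38.p6, from RefSeq. Capitals mark matches to 6 letter strings searched on both strands: GCGCATGCG for NRF1, CCGGAAG for GABPA, AAGGTCA for ERR alpha, AAGATGGCG for YY1, GGGCGG for SP1 and CCAAT for NF-Y, of which no pair overlaps here. The window holds 1 match, CCGGAAG.
Ndufb7: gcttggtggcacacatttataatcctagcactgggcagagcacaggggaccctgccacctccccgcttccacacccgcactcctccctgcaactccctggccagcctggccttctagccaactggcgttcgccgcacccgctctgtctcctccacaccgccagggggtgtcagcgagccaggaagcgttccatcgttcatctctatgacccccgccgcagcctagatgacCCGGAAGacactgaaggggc

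Complex II, succinate dehydrogenase, also sits in the citrate cycle. All 4 of its genes were lower in post-lactation than in lactation bone and 0 were called, with a median of -0.25. Sdhc, a membrane anchor, stood at 7.77, 8.26 and 7.67 after weaning, against 8.10, 8.40 and 8.05 in lactation, a difference of -0.28 (SE 0.072, adjusted p = 0.116). It was lower in each set, and in lactation it was above virgin bone in each set (7.79, 8.17 and 7.78 in virgin). Sdhd, the other anchor, differed by -0.27 (adjusted p = 0.415) and Sdha, the flavoprotein that oxidises succinate, by -0.24 (adjusted p = 0.384). Sdhb, the iron-sulfur subunit, differed by -0.03 (adjusted p = 0.881). The 4 subunits work in equal number, but their probe sets differ in response and their levels cannot be set against each other.

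Complex III is the cytochrome bc1 complex. All 8 of its genes were lower after weaning than in lactation, 7 of them in every set, with a median of -0.25 and a range of -0.39 to -0.03. All 8 were higher in lactation than in virgin bone, with a median of 0.22, and 0 were called in either comparison. Uqcrb, a small subunit near the ubiquinone site, stood at 12.37, 12.57 and 12.16 in post-lactation bone, against 12.78, 12.90 and 12.39 in lactation bone, a difference of -0.33 (SE 0.071, adjusted p = 0.0737). Virgin bone had 12.26, 12.57 and 12.06, so lactation was the highest stage in each set, and post-lactation minus virgin came to 0.07 (adjusted p = 0.789). A second probe set of Uqcrb gave -0.17 for post-lactation minus lactation.

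Uqcr10, another small subunit, had the same pattern at 9.05, 9.59 and 9.31 after weaning and 9.58, 9.94 and 9.54 in lactation (-0.37, SE 0.085, adjusted p = 0.0865). Uqcrfs1, the Rieske iron-sulfur protein that takes electrons from ubiquinol, stood at 9.01, 9.46 and 8.92 after weaning, against 9.53, 9.74 and 9.30 in lactation (-0.39, SE 0.115, adjusted p = 0.165). Both were lower in every set. Of the core proteins that frame the complex, Uqcrc1 differed by -0.24 (adjusted p = 0.207) and Uqcrc2 by -0.03 (adjusted p = 0.9).

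Complex IV, cytochrome c oxidase, held 1 of the called genes and the largest single difference. In post-lactation against lactation bone 11 of 17 genes were lower and 6 higher, with a median of -0.14 and a range of -0.97 to 0.32. Cox6c, a small subunit that spans the membrane once, stood at 10.64, 11.40 and 11.20 in post-lactation bone, against 11.04, 11.75 and 11.53 in lactation bone. Within each set the post-lactation array was the lower by a like amount (-0.40, -0.35 and -0.33), although the groups overlap when sets are pooled. Cox6c fell by 0.36 on the log2 scale (SE 0.061, limma adjusted p = 0.0327), 1.29-fold lower. Virgin bone had 10.78, 11.43 and 11.24, so post-lactation differed from virgin by only -0.07 (adjusted p = 0.762). A second probe set of Cox6c gave -0.05 (adjusted p = 0.783 over all probe sets of the array), so the call rests on the brighter one.

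The broadly expressed subunits of complex IV listed next had small differences after weaning, and none of them was called. Cox6a1 differed by -0.22 (adjusted p = 0.166), Cox6b1 by -0.20, Cox7a2 by -0.19, Cox5b by -0.17, Cox5a by -0.15 and Cox4i1 by -0.14. Cox4i1 and Cox5a are the first nuclear subunits to join the growing enzyme. Cox8a was nearly level, at -0.02.

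Isoforms known from particular tissues had differences in both directions. Cox6b2, known as the testis form of Cox6b, stood at 6.25, 7.10 and 6.40 in post-lactation bone, against 7.42, 7.73 and 7.51 in lactation bone. All 3 post-lactation arrays lay below all 3 lactation arrays even with sets pooled, and the difference of -0.97 (SE 0.192, adjusted p = 0.056) was the largest of all members, 1.96-fold lower. It missed the threshold and passed it when dim genes were left out of the test (adjusted p = 0.0359). In virgin bone it stood at 7.44, 7.52 and 6.74.

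Cox6a2, the heart and muscle form of Cox6a, stood at 6.23, 6.58 and 6.46 after weaning, against 5.76, 6.53 and 6.07 in lactation, and between 5.13 and 6.58 in virgin bone. Its post-lactation minus virgin difference of 0.52 (adjusted p = 0.561) was 1.10, 0.00 and 0.46 in sets 1, 2 and 3, so that set 1, with virgin 1, holds the largest. The 0.00 of set 2 is an exact tie of both arrays. The other muscle forms, Cox7a1 and Cox8b, and the lung form Cox4i2 were below the dim bound, as was Cox7b2, while Cox8c, known from testis, differed by 0.03 after weaning. Beside these, 13 of 18 skeletal muscle markers were below the bound, and the mean of that list lay below the array median on every array (-0.42 to -0.31 after weaning, -0.34 to -0.29 in lactation and -0.40 to -0.29 in virgin bone).

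Cox7a2l, which joins complexes III and IV into supercomplexes, ran against its complex. It stood at 9.89, 10.49 and 10.17 in post-lactation bone, against 9.46, 10.03 and 10.08 in lactation bone, higher by 0.32 (SE 0.093, adjusted p = 0.159). The excess was large in sets 1 and 2 and small in set 3. Its 2 dimmer probe sets gave 0.20 and 0.02. Cox7c, a small subunit found in all tissues, was also higher, by 0.30 (adjusted p = 0.559), from a probe set shared with other sequences.

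**Figure D2:**
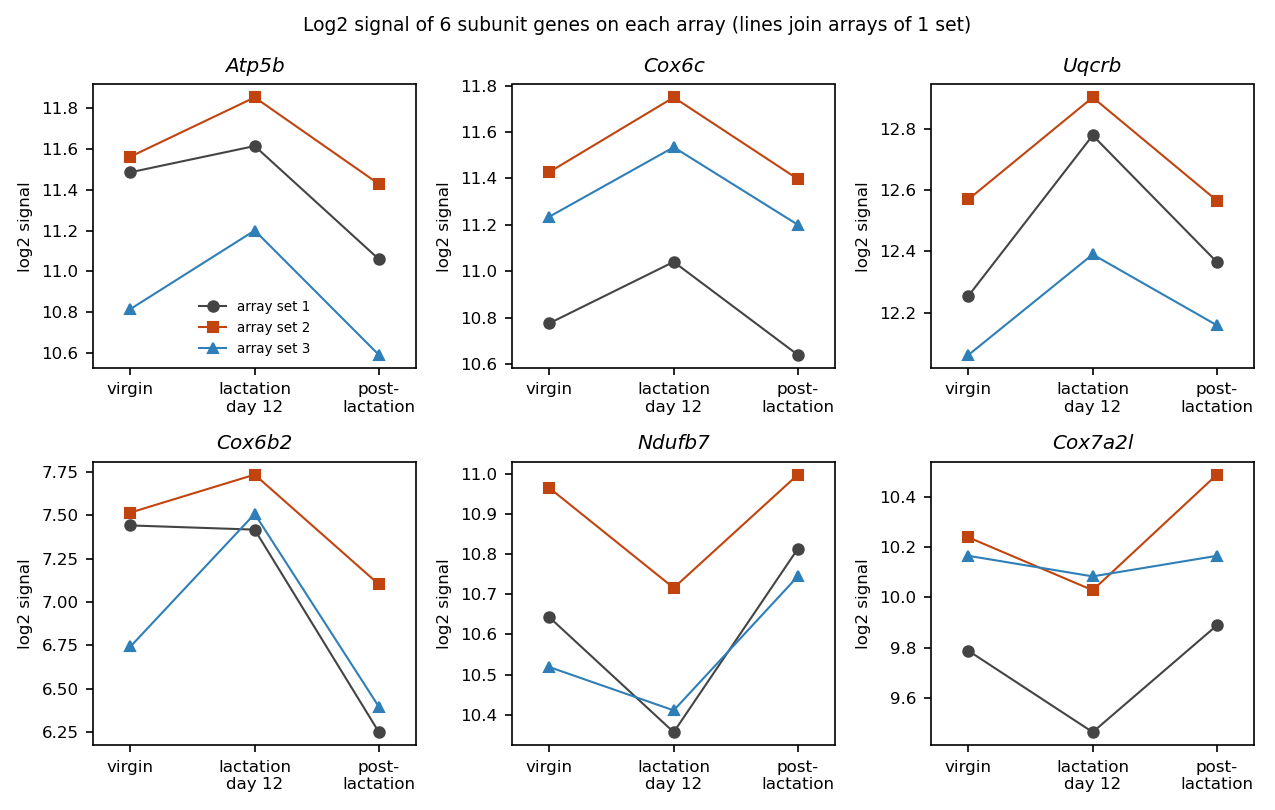
Log2 signal (vertical axis, own scale in each panel) of 6 subunit genes in virgin, lactation day 12 and post-lactation bone (horizontal axis); each point is 1 array and lines join the arrays of a set. Atp5b, Cox6c and Uqcrb are highest in lactation in all 3 sets, Cox6b2 is lowest after weaning, and Ndufb7 and Cox7a2l are higher after weaning than in lactation in each set.

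Complex V, the ATP synthase, held the other called gene. In post-lactation against lactation bone 15 of its 17 genes were lower, 11 of them in every set, with a median of -0.17 and a range of -0.53 to 0.04. In lactation against virgin bone 16 of 17 were higher, with a median of 0.14, and 0 were called. Atp5b, the beta subunit whose catalytic sites make ATP, stood at 11.06, 11.43 and 10.59 in post-lactation bone, against 11.61, 11.85 and 11.20 in lactation bone. Within each set the post-lactation array was lower (-0.55, -0.42 and -0.61), and the pooled ranges overlap. Atp5b fell by 0.53 on the log2 scale (SE 0.082, limma adjusted p = 0.0257), 1.44-fold lower. Virgin bone had 11.48, 11.56 and 10.82, so the post-lactation arrays were below virgin in each set too (-0.26, adjusted p = 0.437).

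The 250 bases before the start of Atp5b are shown because this gene had the smallest p among the members. They lie at chr10:128083057-128083306 on the plus strand of GRCm38.p6, from RefSeq, with matches to the strings listed for Ndufb7 in capitals. The window holds 5 matches to CCAAT, 1 of them as ATTGG on the other strand, and 2 to GGGCGG, 1 of them as CCGCCC, against the single CCGGAAG of Ndufb7.
Atp5b: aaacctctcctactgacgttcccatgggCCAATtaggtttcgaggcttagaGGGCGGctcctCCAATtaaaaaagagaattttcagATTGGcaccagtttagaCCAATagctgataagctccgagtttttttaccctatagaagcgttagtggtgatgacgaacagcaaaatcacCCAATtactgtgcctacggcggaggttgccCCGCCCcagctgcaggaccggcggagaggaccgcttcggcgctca

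The 5 genes of the F1 head that were measured (Atp5a1, Atp5b, Atp5c1, Atp5d and Atp5e) were all lower after weaning in every set, with a median of -0.20, against 10 of 12 other subunits with a median of -0.14. The head was not tested against the other subunits, and Atp5c1, Atp5d and Atp5e were read from probe sets shared with other sequences. Atp5a1, the alpha subunit that alternates with beta in the head, stood at 10.40, 10.83 and 10.09 after weaning, against 10.76, 10.97 and 10.35 in lactation (-0.25, adjusted p = 0.195). Alpha and beta are built in equal number, and both were lower in each set.

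The c-ring, which turns as protons pass, is encoded by Atp5g1, Atp5g2 and Atp5g3, whose mature proteins are identical. Atp5g1 stood at 8.82, 9.64 and 9.58 after weaning, against 9.31, 10.07 and 9.86 in lactation, a difference of -0.40 (SE 0.112, adjusted p = 0.151). Atp5g3 differed by -0.26 (adjusted p = 0.279), and Atp5g2 by 0.04 (adjusted p = 0.842). Atp5j, a subunit of the stalk that couples head and membrane, differed by 0.01, against the sign of its complex.

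Across the complexes, 15 of the subunits measured were on a list of core subunits written for naming genes. They were Ndufs1, Ndufv1, Ndufv2, the 4 Sdh genes, Uqcrc1, Uqcrc2, Uqcrfs1, Cox4i1, Cox5a, Cox5b, Atp5a1 and Atp5b. The list leaves out Ndufs3, Ndufs7 and Ndufs8, and does not stand for the catalytic centre of each complex. All 15 had lower values after weaning than in lactation, 13 of them in every set. Their median was -0.24, and 1, Atp5b, was called. In lactation against virgin bone all 15 were higher, between 0.00 for Sdhb and 0.27 for Sdhc, with a median of 0.13 and 0 called. In post-lactation against virgin bone 14 were lower, between -0.26 for Atp5b and 0.01 for Sdha, with a median of -0.06 and 0 called. Lower in lactation than in virgin bone, against the sign of their complex, were 13 genes of complex I, of which Ndufb7, Ndufb2 (-0.13) and Ndufa2 (-0.11) had the largest differences. In complex IV they were Cox7a2l, Cox7c (-0.05) and Cox8c (-0.05), and in complex V it was Atp5j (-0.04).

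**Figure D3:**
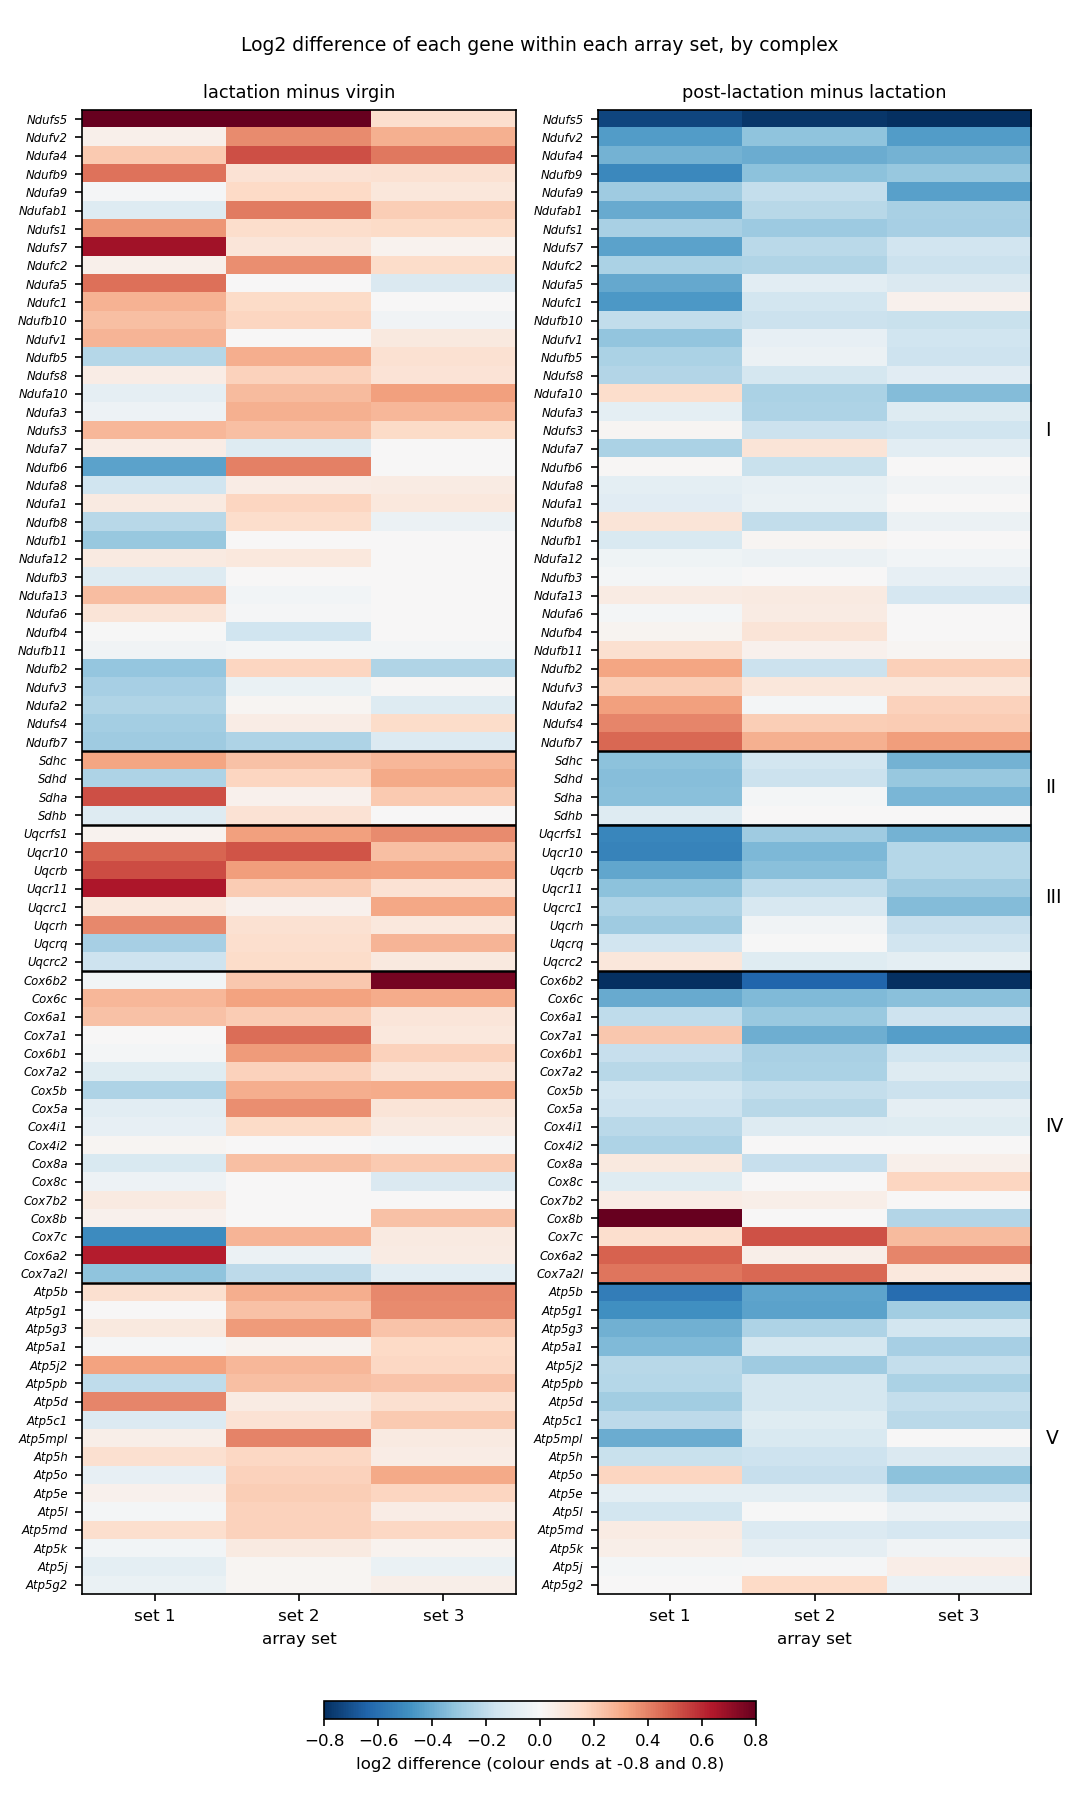
Log2 difference of every gene (rows, grouped by complex I to V and ordered by the post-lactation minus lactation difference) within each of the 3 array sets (columns), for lactation minus virgin and post-lactation minus lactation; red is higher and blue lower in the group named first. The blue of the right panel spans all 3 sets in 46 genes, and the left panel is most mixed in set 1.

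The brightest probe set was not always specific to its gene. Of the 81 probe sets used, 33 are of the unique type, 28 match several transcripts of a gene, 12 are shared with other sequences and 8 may cross-hybridise. In post-lactation against lactation bone 24 of 33, 24 of 28, 9 of 12 and 7 of 8 were lower, so lower values were the majority in each type. Of the 81 genes 49 had more than 1 probe set. The 43 genes with a further probe set at or above the dim bound had 65 such probe sets, of which 48 were lower, with a median of -0.10. In 35 of the 43 the second-brightest had the sign of the brightest.

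Genes that make, feed or serve the chain were counted from lists written by function. Among 15 genes listed for cytochrome c, ubiquinone and complex III outside the members, 13 were lower after weaning than in lactation. Besides genes of ubiquinone synthesis this list holds Etfa, Etfb, Etfdh, Gpd2 and Dhodh, which do not make ubiquinone. Only Cyc1, cytochrome c1 of complex III, fell past the threshold (by 0.46, SE 0.066, adjusted p = 0.02). Of 42 assembly factors 34 were lower and 2 fell, Cox11, which puts copper into complex IV, by 0.62 (adjusted p = 0.0478) and Lrpprc, which stabilises mitochondrial mRNAs, by 0.79 (adjusted p = 0.00787). Of 17 citrate cycle and pyruvate dehydrogenase genes 16 were lower and 0 were called. Of 69 proteins of the mitochondrial ribosome, which translates the subunits made inside the organelle, 65 were lower, with a median of -0.18, and 3 fell: Mrpl36, Mrpl46 and Mrpl51. Among 12 carriers and channels 11 were lower and Vdac3, a pore of the outer membrane, and Atpif1 fell. The shares called lower were 6.67%, 4.76%, 0%, 4.35% and 16.7% in the order of these lists, against 2.99% of all genes. Most lists thus hold few calls beyond that share. Without set 1 no gene of the arrays was called, and the other alternatives were not followed for these genes.

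Atpif1, the inhibitor of ATP synthase, had a difference of -1.23 (SE 0.126, adjusted p = 0.00515), 2.35-fold lower, larger in size than that of any subunit. It is also known for a part in haem synthesis of red cell precursors. Of 20 genes listed as nuclear regulators of mitochondrial genes 14 were lower and only Tfb1m, which methylates the ribosomal RNA of mitochondria, fell, by 0.46 against lactation (adjusted p = 0.0181) and by 0.53 against virgin bone (adjusted p = 0.0355). That is 5% of the list in each comparison, against 2.99% and 0.423% of all genes called lower. The list also holds Polg, Polg2, Twnk, Ssbp1 and Mtif2, which are not transcription factors. In lactation against virgin bone 0 genes of these 6 lists were called, and their medians were 0.07 to 0.18, except -0.04 for the regulators.

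**Figure D4:**
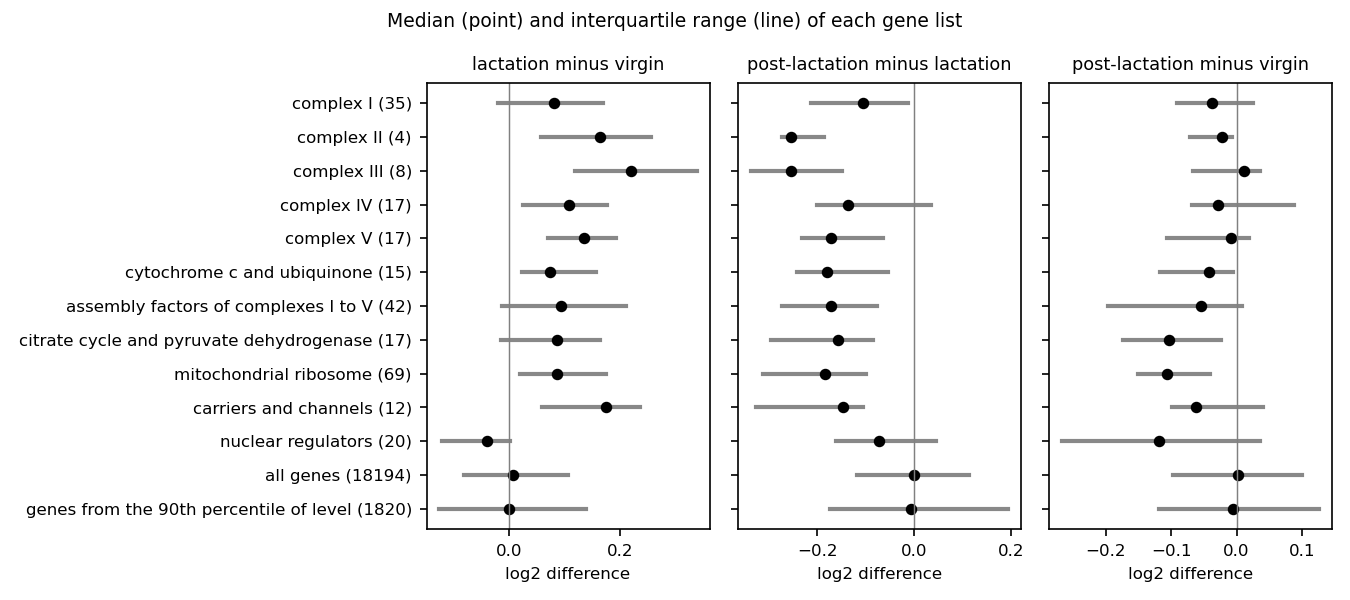
Median (points) and interquartile range (lines) of the log2 difference (horizontal axis) over each complex, over the other mitochondrial lists, and over all genes and those at or above the 90th percentile of level (rows, with the number of genes), in the 3 comparisons. For post-lactation minus lactation the medians of the 5 complexes lie between -0.25 and -0.11 and that of all genes at 0.00.

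Markers of other cells moved with the comparison in which most members were lower. The share of all genes called there was 3.53%, with 2.99% called lower, and without set 1 no gene was called. Of 16 erythroid markers, led by the red cell anion exchanger Slc4a1, 14 fell after weaning, with a median difference of -4.06. Their mean lay 0.46 to 0.86 above the array median in post-lactation bone, against 3.81 to 4.31 in lactation and 2.59 to 3.59 in virgin bone, with no overlap of post-lactation with either. Of 15 osteoclast markers 5 fell after weaning, with a median of -0.50, and their mean was 2.91 to 3.35 after weaning, 3.56 to 3.93 in lactation and 2.90 to 2.98 in virgin bone. Of 15 markers of dividing cells 8 fell, with a median of -0.77, and B lymphocyte markers were all 9 higher, 1 of them past the threshold. The neutrophil list was the brightest of these lists, with a mean 7.57 to 7.80 above the array median after weaning, 7.07 to 7.71 in lactation and 7.26 to 8.32 in virgin bone, against 3.64 to 5.16 for osteocyte markers over all 9 arrays. Probe sets differ in response, so levels of different lists do not give the relative amounts of RNA from these cells. Of the 12 neutrophil genes 8 were higher after weaning than in lactation, all 8 in every set, and 1 was called, Camp, an antimicrobial peptide of neutrophil granules (0.45, adjusted p = 0.0369). The other 4, Elane, Mpo, Prtn3 and Ctsg, made in neutrophil precursors, were lower in every set, with 0 called. Of 8 adipocyte markers, 5 of them below the dim bound, 7 were higher with a median of 0.39 and 0 called, and 10 of 12 macrophage markers were higher with a median of 0.12 and 0 called. The osteocyte list had 8 higher and 8 lower, with 0 called. The part of red cell precursors, osteoclasts, dividing cells, neutrophils, B lymphocytes, macrophages and adipocytes in the lower values of the respiratory chain genes was not tested.

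In lactation against virgin bone, 15 of 16 erythroid and 14 of 15 osteoclast markers were higher, with medians of 1.16 and 0.56. None of the erythroid markers and 1 of the osteoclast markers passed the threshold, against 0.022% of all genes. With no block, or without any 1 array, no gene of the arrays was called. Of 15 dividing-cell markers 13 were higher, with a median of 0.25, and all 12 neutrophil markers were lower, with a median of -0.33, and 0 of either list were called. In post-lactation against virgin bone, 10 erythroid markers fell, with a list median of -2.86, against 0.423% of all genes called lower. When 1 array was left out, 0 to 42 of all genes were called in that comparison. The osteoclast list had a median of 0.21 with 0 called. All 15 dividing-cell markers were lower, with a median of -0.51, 12 of them at an unadjusted p under 0.05 and 0 called. The median over respiratory chain genes in that comparison was -0.03.

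**Figure D5:**
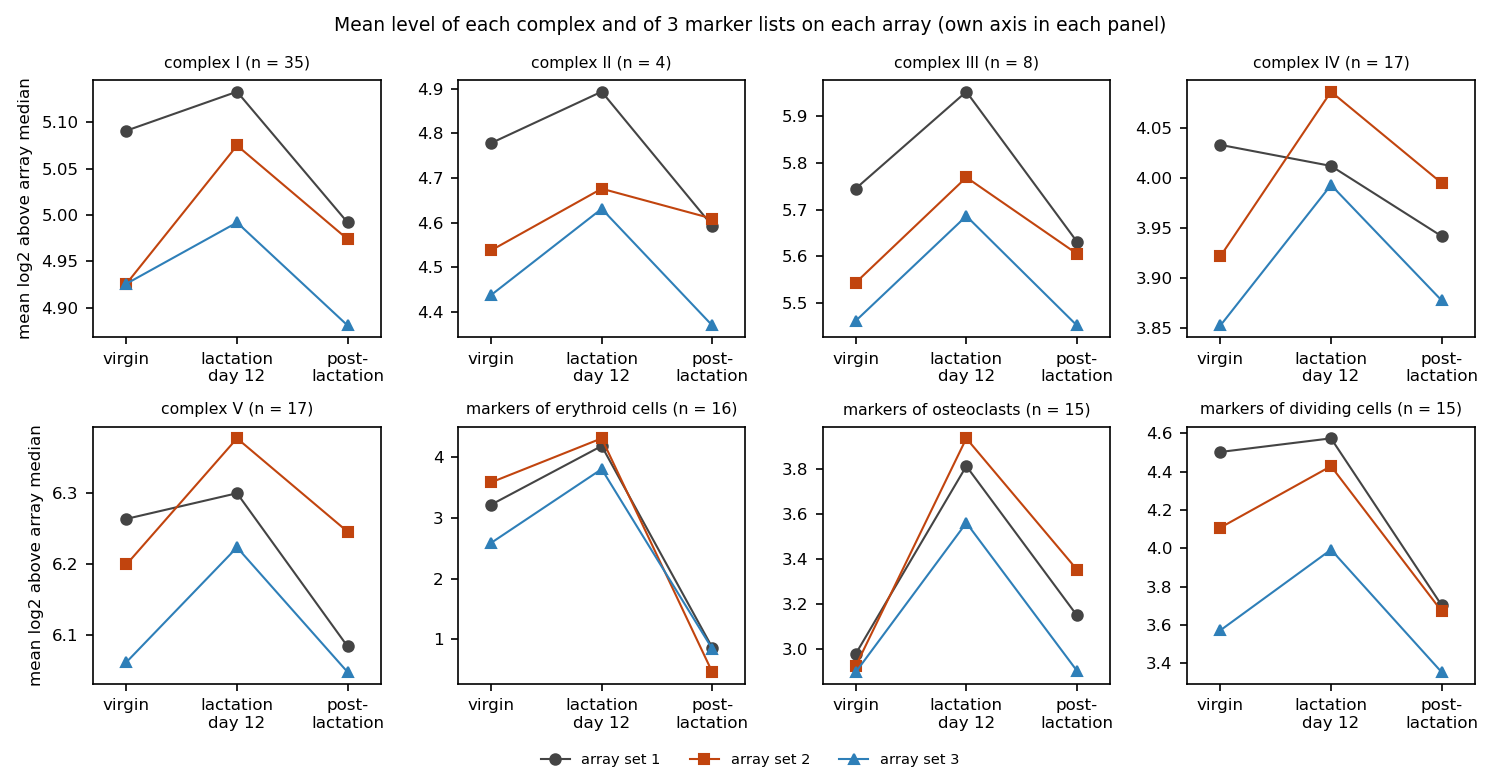
Mean log2 level above the array median (vertical axis, own scale in each panel) of each complex and of the markers of erythroid cells, osteoclasts and dividing cells, in virgin, lactation and post-lactation bone (horizontal axis); each point is 1 array and lines join the arrays of a set. Complexes I, II, III and V are highest in lactation in all 3 sets, and the erythroid mean is at most 0.86 on the post-lactation arrays and at least 2.59 on the others.

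Start regions were compared for the 6 strings in windows of 300 bases, 250 before and 50 after the start. Windows were found for 67 of the 81 members, 72 in all, and for all genes there were 32851. The NRF1 string, named for a factor known to drive respiratory chain genes, was in 9.72% of members' windows, 3.51% of the windows of genes at or above the dim bound and 1.75% of all windows. In the same order, GABPA matches were in 23.6%, 17% and 8.86%, ERR alpha matches in 11.1%, 3.19% and 4.72%, and YY1 matches in 8.33%, 2.99% and 1.4%. SP1 matches were in 41.7%, 62.4% and 35.7%, and NF-Y matches in 40.3%, 36.6% and 37.4%. A match is a string of letters and not a site. Among the members, 41 windows belonged to genes lower after weaning in all 3 sets and 31 to the other genes. The NRF1 string was in 5 of the 41 and 2 of the 31, GABPA in 9 and 8, ERR alpha in 5 and 3, and YY1 in 3 and 3. In the same order, SP1 was in 15 (36.6%) and 15 (48.4%), and NF-Y in 17 (41.5%) and 12 (38.7%).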

How the data were processed

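Affymetrix mouse expression arrays measured RNA of osteocyte-enriched tibial shafts in 3 groups of 3. The authors deposited log2 values for 45101 probe sets. RMA made them, per the submitters' processing notes, and GenePattern and Bioconductor are named in the design text. Software versions, annotation and filters were not given in the sources used here. RMA corrects background, makes arrays of a run share 1 distribution and summarises probes by median polish, so arrays summarised apart are on separate scales. The number of arrays limits the precision.

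Probe sets were matched to genes with the table given for the array: 34958 name 1 gene, 932 several and 9211 none. The probe set with the highest mean stood for each of 18194 genes. Arrays in which over 1% of probe sets had equal values formed a set. limma 3.58.1 in R 4.3.3 (lmFit, eBayes without trend) compared the 3 groups with the set as a block, and a gene was called when its Benjamini-Hochberg adjusted p over all genes was under 0.05. No pseudocount, further scaling or filter was applied. The procedure was tested on simulated data, with changes larger than that of any member and without exact ties. That test therefore does not cover differences as small as those of most members.

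The members, the lists, the set block and the alternatives were chosen with earlier results of these data known. Named in each comparison are the core subunits and tissue isoforms written in a rule, the called members with the smallest p, and up to 3 members per complex that ran against their complex. Others such as Ndufs5, Ndufa4, Ndufb9, Uqcrb, Uqcr10 and Cox6c in comparisons where it was not called were picked after their values were seen. Replicate numbers of the titles do not pair the samples: deviations of equal-numbered arrays from different sets correlated at -0.43 to -0.02 (7 pairs), against 0.42 to 0.67 for arrays of 1 set (9 pairs). Alternatives were no block, the replicate number as block, dim genes left out, the mean of all probe sets, arrays centred on their medians, eBayes with a trend, each array left out in turn, each set alone, and, added after seeing the data, set 1 left out. No genome was used, and promoter sequences are those of the table from RefSeq GRCm38.p6.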

Additional observations from a re-analysis of the deposited data

How the results depend on the processing

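No member was called in lactation against virgin or in post-lactation against virgin bone under any alternative that gave a test, and every one of them, and each set alone, kept the median over members above 0 for lactation minus virgin and below 0 for post-lactation minus lactation. For post-lactation against lactation, members called lower numbered 0 with no set block, 0 with the replicate number as block, 1 with the mean of all probe sets, 0 without set 1, and 0 to 9 when single arrays were left out. The median over members for that comparison was -0.1109 with the mean of all probe sets, -0.1203 without set 1, -0.1843 within set 1 and -0.1797 to -0.113 when single arrays were left out, against -0.1541. For lactation minus virgin it was 0.0056 within set 1. By complex, the median of that comparison within set 1 was -0.02426 for complex IV and 0.0056 to 0.2336 for the others. With the mean of all probe sets, post-lactation minus lactation was -0.0669 for complex I, -0.08242 for complex IV and -0.1109 for complex V. The brightest probe sets had given -0.1063, -0.1376 and -0.1724. Genes called among all genes in lactation against virgin, post-lactation against lactation and post-lactation against virgin bone numbered 4, 642 and 82. They numbered 0, 129 and 32 with no block, 0, 118 and 33 with the replicate block, and 0, 0 and 0 without set 1. In lactation against virgin bone they were 1 with the mean of all probe sets and 2 with a trend. Leaving out single arrays gave 0 to 0, 195 to 927 and 0 to 42. A sign was counted as turned where the difference reported exceeded its SE, whatever the size of the value it turned to. The turned values were all smaller than their own SE, with adjusted p from 0.814 to 1. They came from Cox6a2 in lactation minus virgin, at -0.03208 without virgin 1 and -0.03208 to 0.4118 over the fits that each leave out 1 array. In post-lactation minus virgin they came from Uqcrfs1 (0.02423) and Cox4i1 (0.0129) without set 1, from Cox8b without post-lactation 1 (-0.01322, in a range up to 0.4966) and from Ndufs4 with the mean of all probe sets (-0.01415). The causes were not tested. Cox6c with the mean of its probe sets had -0.21 (adjusted p = 0.145). Exact ties within sets, 3 arrays a group and dim isoforms limit what these arrays can show.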
